A study of Mus musculus with 6 samples.

Results

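Rab proteins are small GTPases that mark the membranes of the secretory and endocytic routes. Each cycles between a GTP-bound form on its membrane, where it recruits effectors that tether, move and fuse vesicles, and a GDP-bound form that is drawn off into the cytosol. Guanine nucleotide exchange factors (GEFs) load the GTP, GTPase-activating proteins (GAPs) end the active state, and a prenyl anchor added by geranylgeranyl transferase holds the protein on the membrane. In blood cells Rab proteins serve the recycling of growth factor and transferrin receptors, lysosome function and the release of granules.

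The Rab family was taken as all genes whose only platform symbol is Rab followed by a number and up to 1 letter and 1 further digit. This gave 58 of the 18193 genes with a single name, and 1 further gene of that pattern is not analysed here. Common myeloid progenitors (CMP) are the bone marrow cells from which granulocyte-monocyte and megakaryocyte-erythrocyte progenitors arise. They were taken from C57BL6 mice, loaded with the dye H2-DCFDA, which fluoresces once oxidised and so reports reactive oxygen species (ROS), and sorted into a high-ROS and a low-ROS fraction. There were 3 arrays of high-ROS CMP and 3 of low-ROS CMP, both of the same strain with no treatment named, with 45101 probe sets each; the sources used here state neither the age of the mice nor any pooling. Nothing in the labels ties the 3 samples of a group to separate mice, so p-values reflect the spread among these samples alone and that spread could be technical. The comparison asks whether transcripts of the vesicle traffic machinery differ with the ROS content of CMP.

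Signals are linear intensities as deposited. Fold changes are high-ROS over low-ROS on the scale of log2(signal + 16), with limma's standard error (SE), and adjusted p-values cover all 18193 genes. A gene is called at an adjusted p under 0.05. Each gene is represented by its probe set with the highest mean. Signals of different probe sets depend on the probes and are not compared between genes, and the median gene had a signal of 66.1. Of the 58 Rab genes, 42 lay above that median and 16 did not.

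The 6 arrays were on a similar scale, with medians between 40.4 and 42.5 and trimmed means between 181 and 198, the lowest on high-ROS array 3. That array also had the highest Gapdh 3' to 5' signal ratio, a measure of RNA integrity and labelling, at 4.53, against 2.54 to 3.57 on the other 5. The progenitor gene Kit had signals of 523 to 749, Cd34 of 341 to 801 and the Fc receptor gene Fcgr3 of 1670.3 to 1777, so these progenitor markers were all above the signal of the median gene. Kit read 523 to 559 on high-ROS and 561 to 749 on low-ROS arrays, without overlap. Cd34 had means of 584 on high-ROS and 417 on low-ROS arrays, with overlapping groups. Il7r, of lymphoid progenitors, had 666 to 835, and the 7 neutrophil markers measured summed to 48369 to 49716 on high-ROS arrays and 48193 to 51512 on low-ROS arrays. Markers of some neighbouring cells differed between the groups. Of 7 stem and multipotent progenitor markers 6 were lower by mean in the high-ROS fraction, and the list summed to 786 to 944 on high-ROS and 1647 to 1902 on low-ROS arrays; Angpt1 passed the threshold (-1.11, adjusted p = 0.00729, limma). Of 8 megakaryocyte markers 5 were lower and 3 higher, with sums of 1065 to 1555 on high-ROS and 2442 to 2629.9 on low-ROS arrays. Most of that gap came from F2r (mean 335 on high-ROS and 1156 on low-ROS arrays) and Pf4 (666 and 1107), so the sums do not show a shift of the whole list. F2r passed (-1.78, adjusted p = 0.00927, limma). Of 8 monocyte and dendritic markers 7 were higher, with sums of 9751 to 11888 on high-ROS and 7723 to 8622 on low-ROS arrays. The summed erythroid, lymphoid and mast cell, basophil and eosinophil markers were 7190.2 to 8531, 1724 to 1846 and 11068 to 13344 on high-ROS arrays, and 9211 to 9407, 1463 to 1949.6 and 12922 to 14448 on low-ROS arrays. Of 6 erythroid markers measured 5 were lower and 1 higher by mean. Most of the gap in their sums came from Slc4a1 (mean 4985 on high-ROS and 6109 on low-ROS arrays). The erythroid sums therefore do not show a shift of the whole list. The values carry no detection call, so a signal above 0 does not show that a marker was expressed. Hba-a1 was listed at 1.0 on high-ROS array 2 and on low-ROS array 1. The part of these cells, or of RNA quality, in the Rab values was not tested.

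Differences in Rab transcripts between high-ROS and low-ROS CMP were small. None of the 58 genes passed the threshold in either direction with limma (smallest adjusted p = 0.568, for Rab37), beside 0.0165% of all genes called higher and 0.0385% called lower. All log2 fold changes lay between -0.51, for Rab4a, and 0.50, for Rab30, with a median of -0.09 beside 0.02 over all genes. Among the 42 genes above the median signal, the 95% interval of the brightest probe set stayed within 2-fold in either direction for 41. This holds on the scale of log2(signal + 16) and in the main fit, and the lower ends for Rab4a (-0.99) and Rab23 (-0.97) nearly reached 2-fold. The interval of Rab7b (-0.14 to 1.12) did not stay within 2-fold. Less bright probe sets of such genes were not all limited in this way, as for Rab37 (-1.40 to -0.61) and Rab43 (-1.31 to -0.09). The pseudocount of 16 understates folds, also for genes of moderate signal such as Rab4a and Rab23. It does so most for the 16 dimmer genes, whose intervals do not limit the difference in this way. At an unadjusted p under 0.05 there was 1 gene higher, Rab26, beside 4.44% of all genes, and 2 lower, Rab37 and Rab4a, beside 3.37% of all genes. These counts moved in most fits with an array left out. With high-ROS replicate 1 left out they were 2 higher and 1 lower. Leaving out high-ROS replicate 2 gave 0 higher and 2 lower, and leaving out high-ROS replicate 3 gave 2 higher and 3 lower. Dropping low-ROS replicate 1 left 0 in either direction, and dropping low-ROS replicate 2 left 1 higher and 3 lower. Without low-ROS replicate 3 they stayed at 1 higher and 2 lower. In the fits with an array left out, 3.02% to 5.22% of all genes were higher and 2.51% to 5.14% lower by the same rule.

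The small differences ran more often downward than upward. The mean was lower in high-ROS CMP for 35 genes and higher for 23, where 46.0% of all genes were lower. In 10 genes (17.2%) all 3 high-ROS arrays lay below all 3 low-ROS arrays, namely Rab37, Rab38, Rab11a, Rab5b, Rab8a, Rab22a, Rab18, Rab1a, Rab6a and Rab36, beside 5.32% of all genes. In 1 gene, Rab26, all high-ROS arrays lay above the low-ROS ones, beside 8.04% of all genes. Among the 42 brighter Rab genes, 9 were lower without overlap, beside 6.46% of the brighter genes of the array, and 0 were higher, beside 9.95%. With the arrays scaled to one trimmed mean, 6 of the 58 were lower without overlap instead of 10, beside 4.95% of all genes. Since these are bulk samples, fewer cells of a type and less RNA per cell cannot be told apart.

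**Figure D1:**
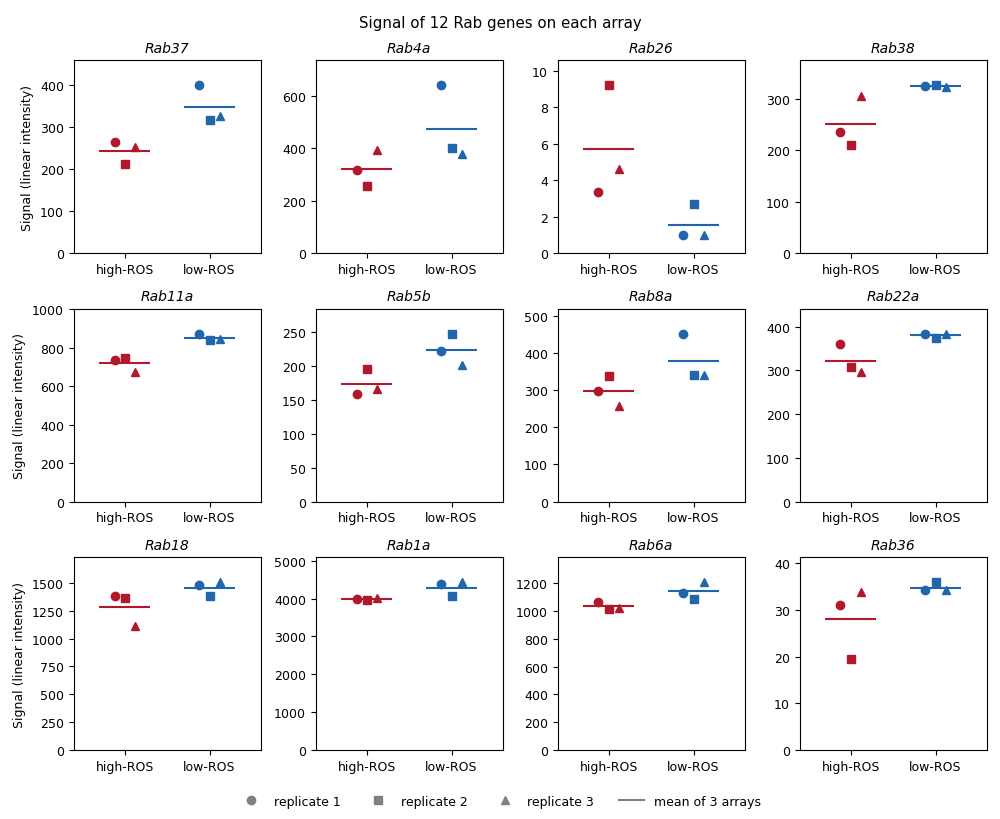
Signal (linear intensity, y axes starting at 0 with a scale for each gene) of 12 Rab genes on the 3 high-ROS and 3 low-ROS arrays, with markers for the replicate number and lines for the mean of 3 arrays. The 11 genes whose groups do not overlap are shown with Rab4a, whose groups do; the signals of Rab26 stay below 10 on every array.

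For 48 of the 58 genes RefSeq (GRCm38.p6) gave 60 promoter windows of 300 bases, each from 250 bases before to 50 after an annotated start. As a set they were rich in CpG: the median GC content was 61.2% beside 52.7% over the 32851 windows of all genes in that table, and the CpG count over that expected from base composition was above 0.6 in 42 of 60 windows, beside 35.8% of all windows. This was less so for the dimmer genes, with 6 of 14 windows above 0.6, against 36 of 46 for genes above the median signal. The GC box, GGGCGG or its reverse CCGCCC, was in 41 of the 60 windows and in 35.7% of all windows. The TATA box letters TATAAA, on either strand, were in 4 of 60 and in 13.6% of all windows. By signal, they were in 1 of the 46 windows of brighter and 3 of the 14 of dimmer Rab genes. The GATA letters AGATAA were in 2 of 60, beside 11.2% of all windows, and the antioxidant response core TGACNNNGC in 10 of 60, beside 12.4%, again on both strands. The same counts were 5 for the ETS letters CCGGAAG (8.86% of all windows), 6 for the E-box CACGTG (7.15%), 26 for CCAAT (37.4%), 2 for the cyclic AMP element TGACGTCA (1.79%) and 3 for the AP-1 letters TGACTCA (5.20%), with windows counted once per motif and overlaps between motifs allowed. A match is a run of letters and not a measured binding site.

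The windows of Rab11a, Rab5b and Rab8a are shown because, of the genes lower on every high-ROS array, these had the smallest p among those with a window. They lie at chr9:64737707-64738006 (minus strand), chr10:128696219-128696518 (minus strand) and chr8:72160950-72161249 (plus strand) of GRCm38.p6, and each is written 5' to 3' along the gene with GC boxes in capitals.
Rab11a: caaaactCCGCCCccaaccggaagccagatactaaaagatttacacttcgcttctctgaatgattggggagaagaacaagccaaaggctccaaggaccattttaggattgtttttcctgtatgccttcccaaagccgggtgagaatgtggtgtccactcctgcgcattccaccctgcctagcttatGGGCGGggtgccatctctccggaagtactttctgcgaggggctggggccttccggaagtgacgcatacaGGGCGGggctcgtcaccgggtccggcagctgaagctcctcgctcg
Rab5b: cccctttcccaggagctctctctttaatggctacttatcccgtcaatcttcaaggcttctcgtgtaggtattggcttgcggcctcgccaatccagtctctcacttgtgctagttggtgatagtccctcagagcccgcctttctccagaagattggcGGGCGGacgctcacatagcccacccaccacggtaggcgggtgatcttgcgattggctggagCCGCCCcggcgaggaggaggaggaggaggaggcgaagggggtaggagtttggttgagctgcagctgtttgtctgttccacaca
Rab8a: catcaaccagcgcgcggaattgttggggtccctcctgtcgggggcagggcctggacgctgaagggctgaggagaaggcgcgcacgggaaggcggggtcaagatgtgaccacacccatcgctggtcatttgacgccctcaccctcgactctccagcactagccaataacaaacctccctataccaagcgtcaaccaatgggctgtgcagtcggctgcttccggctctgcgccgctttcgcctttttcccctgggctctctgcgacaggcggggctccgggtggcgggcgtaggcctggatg
Rab11a holds 3 GC boxes and Rab5b holds 2, while Rab8a has 0 in this window.

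Rab proteins of the endoplasmic reticulum (ER) and Golgi carry cargo through the first steps of secretion. Of the 15 genes measured, 9 were lower and 6 higher by mean, with a median log2 fold change of -0.10 and 0 past the threshold. Rab1a, which directs ER-to-Golgi transport, had signals of 3991, 3970.3 and 4025 on high-ROS arrays 1 to 3, against 4379.8, 4058 and 4432 on low-ROS arrays 1 to 3. The high-ROS arrays differed little among themselves and all lay below the low-ROS ones, yet the distance was small, 1.07-fold (log2 fold change -0.10, SE 0.0751). Its other 2 probe sets had log2 fold changes of -0.08 and -0.15. Rab6a, of Golgi and retrograde transport, was 1.10-fold lower with signals of 1067, 1013 and 1025 on high-ROS arrays 1 to 3, against 1129, 1090.3 and 1208 on low-ROS arrays 1 to 3. Rab18, of ER and lipid droplet contacts, was 1.14-fold lower on its brightest probe set, with 1381, 1365 and 1112 on high-ROS arrays 1 to 3, against 1479, 1386 and 1507 on low-ROS arrays 1 to 3, so that high-ROS array 1 nearly met low-ROS array 2; its other probe set had a log2 fold change of 0.12. Rab36, from low signals, was the fourth gene of the group without overlap, with 31.0, 19.5 and 33.8 on high-ROS arrays 1 to 3, against 34.2, 36.0 and 34.3 on low-ROS arrays 1 to 3. The other 2 probe sets of Rab36, both dimmer, had log2 fold changes of 0.21 and -0.18 with overlapping groups. Rab6a, Rab18 and Rab36, like Rab8a, Rab22a, Rab24, Rab30, Rab43 and Rab44 below, were singled out after their values were seen.

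Rab2a, which acts between the Golgi and the ER and also at late endosomes, depended on the probe set. The brightest read 1942, 1747 and 2095 on high-ROS arrays 1 to 3, against 2187, 1742 and 1815 on low-ROS arrays 1 to 3, a log2 fold change of 0.01 (95% interval -0.24 to 0.27). Of its other 6 probe sets, 4 had all high-ROS arrays below all low-ROS arrays. The second brightest read 1339.6, 1562 and 1189.7 on high-ROS arrays 1 to 3, against 1681, 1637 and 1744 on low-ROS arrays 1 to 3, a log2 fold change of -0.31 (with an SE of 0.117, and adjusted p = 0.655 over all probe sets, limma), and the sixth read 715, 880.3 and 528 on high-ROS arrays 1 to 3, against 958, 915 and 984 on low-ROS arrays 1 to 3, with -0.45 (SE 0.168).

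Rab1b, the close relative of Rab1a, had 113, 135 and 202 on high-ROS arrays 1 to 3, against 89.4, 119.8 and 138 on low-ROS arrays 1 to 3. The groups overlapped, and its log2 fold change of 0.31 (SE 0.242) became 0.10 when high-ROS replicate 3 was left out, 0.48 when high-ROS replicate 1 was and 0.16 when low-ROS replicate 1 was. Rab6b, a Rab6 form best known from neurons, was dim, at 22.6, 16.1 and 19.6 on high-ROS arrays 1 to 3, against 36.2, 19.4 and 33.0 on low-ROS arrays 1 to 3, and its log2 fold change of -0.34 had the opposite sign to those of its other 3 probe sets, 0.22, 0.10 and 0.28. Rab30, a Golgi Rab, spread widely in both groups, from 55.2 to 126 on high-ROS arrays and from 19.3 to 78.9 on low-ROS arrays, and its other, dim probe set gave -0.17. Rab43, another Golgi Rab, had log2 fold changes of -0.27, 0.25 and -0.70 on its 3 probe sets. The remaining 6 genes of this group, Rab2b, Rab33a, Rab33b, Rab34, Rab39 and Rab39b, ranged from -0.15 to 0.26, and all except Rab33b had a signal no higher than that of the median gene.

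Early endosome Rab proteins sort cargo that has just been taken up. Of 7 genes, 5 were lower and 2 higher by mean, with a median log2 fold change of -0.15 and 0 past the threshold. The 3 genes of the Rab5 protein, which drives fusion of early endosomes, had means on both sides of 0. Rab5b had 158, 195 and 165 on high-ROS arrays 1 to 3, against 222, 247 and 200.4 on low-ROS arrays 1 to 3. All high-ROS arrays lay below the low-ROS ones, although high-ROS array 2 and low-ROS array 3 nearly met, and the difference was 1.27-fold (log2 fold change -0.34 with an SE of 0.173, adjusted p = 0.662, limma). Alternative settings gave -0.42 to -0.27, and its other probe set gave -0.35 without overlap. Rab5a had 555, 614 and 633 on high-ROS arrays 1 to 3, against 592, 513 and 604 on low-ROS arrays 1 to 3, overlapping groups and a log2 fold change of 0.08 (95% interval -0.21 to 0.36). Rab5c had 0.04 (95% interval -0.47 to 0.55). The difference between the 3 genes was not tested.

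Rab22a, of early endosomes and recycling, and Rab31, its relative that links the trans-Golgi network with endosomes, were both lower by mean. Rab22a read 359, 307 and 297 on high-ROS arrays 1 to 3, against 383, 374 and 383 on low-ROS arrays 1 to 3, without overlap and 1.18-fold lower, and of its other 3 probe sets 2 were lower (-0.16 and -0.17) and 1 higher (0.21). Rab31 read 650.0, 902 and 631 on high-ROS arrays 1 to 3, against 963, 823 and 897 on low-ROS arrays 1 to 3. High-ROS array 2 was among the low-ROS values, and the log2 fold change of -0.31 (SE 0.150) was -0.47 without that array and 0.01 on the other probe set. Rab21, which escorts integrins through endosomes, had 2264, 2417 and 2244 on high-ROS arrays 1 to 3, against 2539, 2500.4 and 2395 on low-ROS arrays 1 to 3, a log2 fold change of -0.10 (95% interval -0.29 to 0.09). Rab20 had -0.15 (95% interval -0.73 to 0.43).

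Recycling Rab proteins return receptors to the surface. Of 9 genes, 6 were lower and 3 higher by mean, with a median log2 fold change of -0.08 and 0 past the threshold. Rab4a, of the fast recycling route straight from early endosomes, had the lowest fold change of the family. Its signals were 316, 256 and 394 on high-ROS arrays 1 to 3, against 639, 399 and 377 on low-ROS arrays 1 to 3. The high-ROS mean was 1.42-fold lower (log2 fold change -0.51 with an SE of 0.219, adjusted p = 0.621, limma), but the groups overlapped at high-ROS array 3 and the size rests on low-ROS array 1. Without low-ROS replicate 1 the log2 fold change was -0.28; a fit with the Gapdh ratio as covariate gave -0.97. The second probe set of Rab4a, less bright, read 78.8, 77.3 and 83.3 on high-ROS arrays 1 to 3, against 143, 110.0 and 119.6 on low-ROS arrays 1 to 3, without overlap, with a log2 fold change of -0.54 (with an SE of 0.194, and adjusted p = 0.647 over all probe sets, limma).

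Rab11a, of the slower route through the recycling endosome, had 736, 749 and 672 on high-ROS arrays 1 to 3, against 872, 839 and 844 on low-ROS arrays 1 to 3. The groups did not overlap and were each narrow, at 719 ± 41.0 in high-ROS CMP and 851 ± 17.8 in low-ROS CMP (SD, n = 3 each), a 1.18-fold difference (log2 fold change -0.24, SE 0.113). The adjusted p was 0.638 (limma), alternative settings gave log2 fold changes from -0.27 to -0.16, and the less bright probe set gave -0.08. The near relatives Rab11b (-0.12, 95% interval -0.36 to 0.11) and Rab4b (0.10, 95% interval -0.28 to 0.48) had overlapping groups. Rab14, which works between endosomes and the Golgi, read 1285, 1074 and 1171 on high-ROS arrays 1 to 3, against 1099.8, 1059 and 1120.5 on low-ROS arrays 1 to 3 on its brightest probe set, a log2 fold change of 0.10 (SE 0.109). Its other 6 probe sets ranged from -0.38 to 0.54, 4 of them below 0. The remaining 4 genes, Rab15, Rab17, Rab25 and Rab35, lay between -0.19 and 0.03.

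Late endosome and lysosome Rab genes lay on both sides of 0. Of 8 genes, 3 were lower and 5 higher by mean, with a median log2 fold change of 0.02 and 0 past the threshold. Rab38 and Rab32 are relatives that build lysosome-related organelles such as melanosomes and platelet dense granules. Rab38 had 235, 210.4 and 305 on high-ROS arrays 1 to 3, against 325, 326 and 322 on low-ROS arrays 1 to 3. The low-ROS arrays were nearly equal and all above the high-ROS ones, a 1.29-fold difference (log2 fold change -0.37 with an SE of 0.169, adjusted p = 0.638, limma). Its other probe set repeated the pattern with 225, 204 and 250.2 on high-ROS arrays 1 to 3, against 302, 319.7 and 284 on low-ROS arrays 1 to 3 and -0.39 (SE 0.154). Rab32 had 158, 231 and 195 on high-ROS arrays 1 to 3, against 179, 188 and 209.8 on low-ROS arrays 1 to 3, overlapping groups and a log2 fold change of 0.00 (95% interval -0.41 to 0.42).

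Rab7, which brings late endosomes to lysosomes, read 2433, 2488 and 1778 on high-ROS arrays 1 to 3, against 2325, 2424 and 2707 on low-ROS arrays 1 to 3. High-ROS array 3 stood below the other 5, and without that replicate the log2 fold change of -0.17 (SE 0.130) became -0.01; with the Gapdh ratio as a covariate it was 0.12. The second probe set, of similar brightness, read 2041, 2255 and 1557 on high-ROS arrays 1 to 3, against 2303, 2362 and 2469 on low-ROS arrays 1 to 3, where the groups did not overlap (log2 fold change -0.30, SE 0.131). Rab7b, which acts from late endosomes back to the trans-Golgi network, read 93.5, 109 and 78.4 on high-ROS arrays 1 to 3, against 35.9, 62.4 and 98.9 on low-ROS arrays 1 to 3. Low-ROS array 3 lay among the high-ROS values, and the log2 fold change of 0.49 (SE 0.286) was 0.20 with low-ROS replicate 1 left out, 0.77 with low-ROS replicate 3 left out and 0.96 in a fit with the Gapdh ratio as covariate. Its other 2 probe sets, both dim, gave 0.13 and -0.09. Rab24, linked to autophagy, was lower on both of its probe sets (-0.34 and -0.38) with overlapping groups. Rab9, Rab9b and Rab29 lay between 0.03 and 0.07.

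Rab proteins of exocytosis bring secretory vesicles and granules to the plasma membrane. Of 11 genes, 8 were lower and 3 higher by mean, with a median log2 fold change of -0.11 and 0 past the threshold. Rab37, a Rab of secretory granules known from mast cells, had the smallest p of the family. Its signals were 266, 214 and 254 on high-ROS arrays 1 to 3, against 399.9, 316 and 326 on low-ROS arrays 1 to 3. Every high-ROS array was below every low-ROS array, with means of 244 ± 27.4 in high-ROS CMP and 348 ± 45.6 in low-ROS CMP (SD, n = 3 each), a 1.39-fold difference (log2 fold change -0.48 with an SE of 0.164, adjusted p = 0.568, limma). The second Rab37 probe set, less bright, showed a wider gap, with 80.5, 91.5 and 87.5 on high-ROS arrays 1 to 3, against 197, 171 and 202 on low-ROS arrays 1 to 3. Its log2 fold change of -1.01 (SE 0.179) was the lowest among the 128 probe sets of the family, with an adjusted p of 0.169 over all probe sets (limma). Over 17 alternative settings the gene's log2 fold change ranged from -0.74 to -0.38, the lowest with its probe sets averaged, and its unadjusted p was under 0.05 in 15 of them.

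Rab27a, which docks lysosome-related granules in cytotoxic and myeloid cells, read 505, 523 and 331 on high-ROS arrays 1 to 3, against 486, 499 and 528 on low-ROS arrays 1 to 3. High-ROS array 3 was the low one and the other 5 arrays lay together, and without high-ROS replicate 3 the log2 fold change of -0.18 (SE 0.176) was 0.03. The other 3 probe sets gave -0.40, -0.10 and -0.25, each also with its lowest signal on that array. Rab8a, of surface-directed traffic, read 298, 337 and 257 on high-ROS arrays 1 to 3, against 451, 342 and 342 on low-ROS arrays 1 to 3. The groups nearly met, with low-ROS array 1 well above the other 5, and the difference was 1.26-fold (log2 fold change -0.33, SE 0.170; alternative settings from -0.42 to -0.10). Its relative Rab8b read 1753, 1501 and 1656 on high-ROS arrays 1 to 3, against 1644, 1658 and 1695 on low-ROS arrays 1 to 3, a log2 fold change of -0.03 (95% interval -0.24 to 0.19). Rab10, known for moving glucose transporters to the surface of fat cells, read 1942, 1886 and 1612 on high-ROS arrays 1 to 3, against 1922, 2099.8 and 1829 on low-ROS arrays 1 to 3, and its 3 probe sets gave -0.11, -0.25 and -0.21 with overlapping groups.

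Rab3 proteins time the release of vesicles in neurons and gland cells. Rab3a read 113, 163 and 202 on high-ROS arrays 1 to 3, against 114, 138 and 108 on low-ROS arrays 1 to 3. The groups overlapped, and the log2 fold change of 0.34 (SE 0.227) was 0.55 with high-ROS replicate 1 left out and 0.17 with high-ROS replicate 3 left out. Rab3b and Rab3c did not exceed the signal of the median gene, and Rab3d had -0.20 (95% interval -0.57 to 0.18) with probe sets of both signs. Rab26, a Rab of secretory granules, was the only member below an unadjusted p of 0.05 with a higher mean, but from signals of 3.37, 9.19 and 4.60 on high-ROS arrays 1 to 3, against 1.0, 2.70 and 1.0 on low-ROS arrays 1 to 3, all near the lowest values of the arrays. Its log2 fold change was 0.30 (SE 0.130, adjusted p = 0.628, limma) and moved between 0.09 and 1.36 with pseudocounts of 64 and 1. Rab13 had -0.04 (95% interval -0.59 to 0.51).

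The other 8 genes were not placed in the lists above, and 4 were lower and 4 higher by mean, with a median log2 fold change of -0.0025. Rab23, an antagonist of Hedgehog signalling in the mouse, read 63.4, 124 and 118 on high-ROS arrays 1 to 3, against 171, 119 and 120.3 on low-ROS arrays 1 to 3. High-ROS array 1 was the low one, and the log2 fold change of -0.40 (SE 0.257) was -0.14 once high-ROS replicate 1 was dropped and -0.25 once low-ROS replicate 1 was, while its 2 dim probe sets gave 0.41 and 0.10. Rab40b, which carries a domain that recruits a ubiquitin ligase, was dim, with 28.6, 21.0 and 16.1 on high-ROS arrays 1 to 3, against 35.6, 36.2 and 25.2 on low-ROS arrays 1 to 3 and a log2 fold change of -0.35 (SE 0.207). Rab12, which sends transferrin receptor to lysosomes, read 139, 136 and 149.9 on high-ROS arrays 1 to 3, against 126, 137 and 131 on low-ROS arrays 1 to 3, a log2 fold change of 0.10 (95% interval -0.29 to 0.49). Rab44, a large Rab with calcium-binding motifs, ranged from 844 to 1381 on high-ROS and from 923 to 1169 on low-ROS arrays. Rab19, Rab28, Rab40c and Rab42 lay between -0.15 and 0.09, with overlapping groups.

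**Figure D2:**
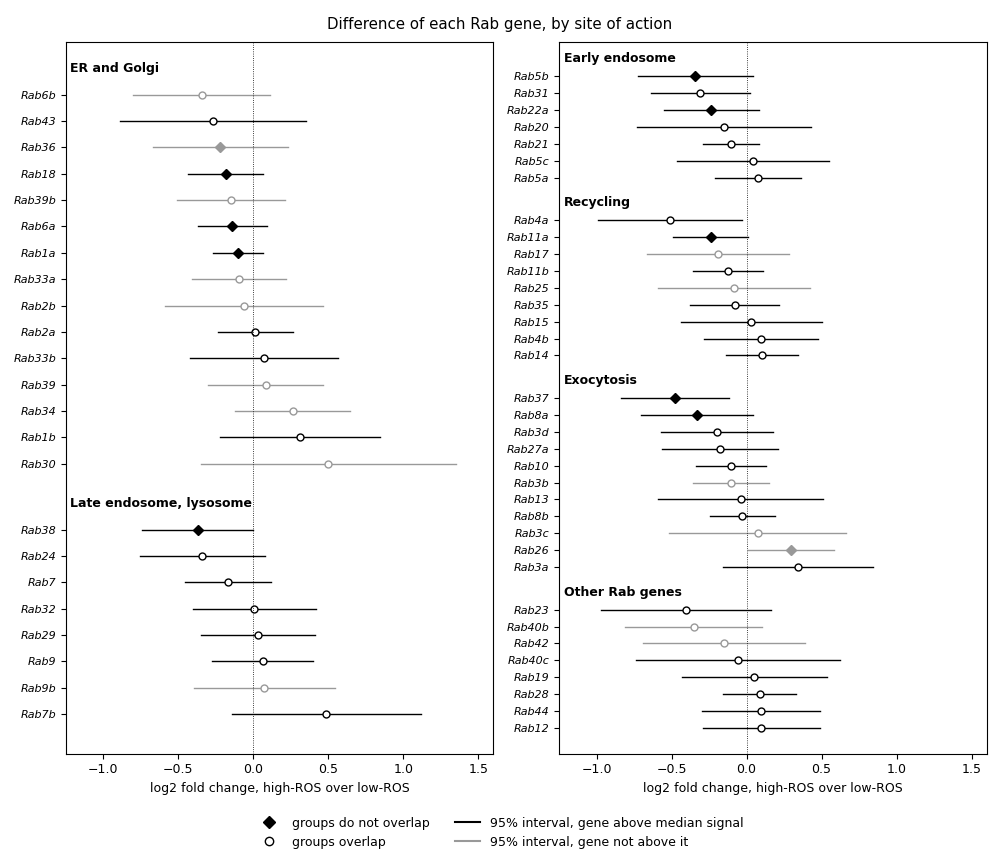
Log2 fold change (x axis, high-ROS over low-ROS) of the 58 Rab genes with limma's 95% interval, grouped by site of action, with diamonds for genes whose groups do not overlap and grey for genes not above the median signal. The estimates lie between -0.51 and 0.50, and 10 of the 11 diamonds are below 0.

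The 58 genes had 128 probe sets, and 37 genes had more than 1. All probe sets of a gene had the same sign in 22 of the 37 and not in 15. Over the 128, 81 were lower by mean and 47 higher, and 23 were lower without overlap, beside 5.95% of all probe sets, with 2 higher, beside 7.21%. Both probe sets of Rab37, of Rab38 and of Rab5b were lower without overlap. At an unadjusted p under 0.05, 11 were lower, beside 3.59% of all probe sets, and 1 higher, beside 3.72%, and 0 passed the adjusted threshold (limma). Probe sets of 1 gene share its transcripts and are not independent, and those marked s or x in the platform's names, such as the brightest of Rab4a and Rab38, may also read related transcripts.

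**Figure D3:**
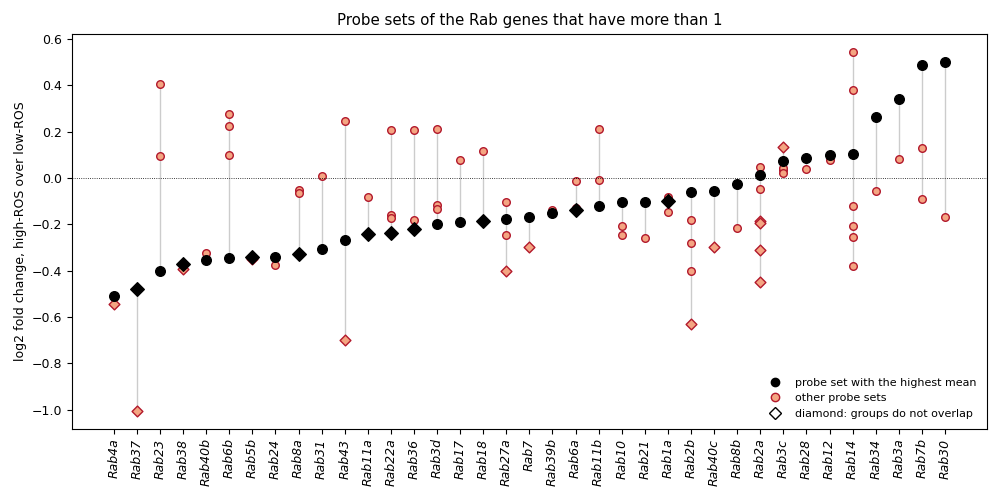
Log2 fold change (y axis, high-ROS over low-ROS) of every probe set of the 37 Rab genes with more than 1, in the order of the brightest probe set (black), with the others in orange and diamonds where the groups do not overlap. The probe sets of Rab37, Rab38, Rab4a and Rab5b all lie below -0.3, while those of Rab14, Rab23, Rab6b and Rab43 fall on both sides of 0.

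The genes that act on Rab proteins gave no call either. Of 118 listed, 111 were measured, with 64 higher and 47 lower by mean, a median log2 fold change of 0.05 and 0 past the threshold (smallest adjusted p = 0.568, limma). At an unadjusted p under 0.05, 5 were higher and 3 lower, beside the 4.44% and 3.37% of all genes. In each list below, the 3 genes of smallest p are described.

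Among genes for prenylation and membrane extraction, 4 of 7 measured were higher and 3 lower by mean, with a median of 0.00. Chml, an escort protein that presents new Rab proteins for prenylation, read 118, 88.0 and 135 on high-ROS arrays 1 to 3, against 78.2, 93.5 and 84.1 on low-ROS arrays 1 to 3, a log2 fold change of 0.34 (SE 0.213). Gdi2, the GDP dissociation inhibitor that draws Rab proteins off membranes, read 2858, 2834 and 2759 on high-ROS arrays 1 to 3, against 2444, 2832 and 2548 on low-ROS arrays 1 to 3. Its groups overlapped and its log2 fold change was 0.11 (SE 0.0881), while its other 5 probe sets gave 0.18, 0.14, -0.04, -0.10 and -0.21. Rabif, which holds Rab proteins in the nucleotide-free state, had -0.13 (SE 0.153).

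Exchange factors had 19 of 31 measured genes higher and 12 lower by mean, with a median of 0.09. Ccz1, part of the complex that activates Rab7, read 1120.3, 1032 and 1167 on high-ROS arrays 1 to 3, against 940.1, 889 and 809 on low-ROS arrays 1 to 3. All high-ROS arrays lay above the low-ROS ones (log2 fold change 0.33 with an SE of 0.113, adjusted p = 0.568, limma). Dennd1a, which activates Rab35, read 110.3, 101 and 153 on high-ROS arrays 1 to 3, against 52.4, 90.5 and 81.1 on low-ROS arrays 1 to 3, also without overlap, with a log2 fold change of 0.61 (with an SE of 0.241, and adjusted p = 0.594, limma). Als2cl, a relative of the Rab5 activator alsin, was higher without overlap from dim signals of 15.6, 29.8 and 40.3 on high-ROS arrays 1 to 3, against 15.0, 11.7 and 13.9 on low-ROS arrays 1 to 3. Of the 31 exchange factors 6 were higher without overlap, beside 8.04% of all genes, and 3 lower, beside 5.32%. At an unadjusted p under 0.05 (limma), 3 were higher, beside 4.44% of all genes, and 3 lower, beside 3.37%. The 3 lower by that p, named after their values were seen, were Rabgef1, Madd and Ric1. Rabgef1, which activates Rab5, read 588, 683 and 666 on high-ROS arrays 1 to 3, against 759.8, 776 and 865 on low-ROS arrays 1 to 3, a log2 fold change of -0.30 (SE 0.123), with -0.10 and -0.58 on its other 2 probe sets. Ric1, which with a partner protein activates Rab6, had -0.34 (SE 0.148) and -0.48 on its other probe set, both without overlap. Madd, which activates Rab3 and Rab27 proteins, had -0.45 (SE 0.190) with low-ROS array 1 the highest at 1535.

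GTPase-activating proteins were evenly divided, 17 higher and 17 lower of 34, with a median of 0.00 and 0 below an unadjusted p of 0.05. Tbc1d22a had 0.30 (SE 0.143), Tbc1d4, which acts on Rab10 in insulin-responsive cells, had 0.33 (SE 0.173), and Tbc1d16 had 0.39 (SE 0.207). Effectors had 24 of 39 measured genes higher and 15 lower by mean, with a median of 0.08. Rph3a, an effector of Rab3 and Rab27 proteins, was higher without overlap from dim signals of 19.2, 20.9 and 36.3 on high-ROS arrays 1 to 3, against 9.14, 8.01 and 15.9 on low-ROS arrays 1 to 3. Mical1, an actin-oxidising enzyme that binds Rab proteins, read 828, 770.2 and 1116 on high-ROS arrays 1 to 3, against 574, 789 and 643 on low-ROS arrays 1 to 3, with overlapping groups and a log2 fold change of 0.42 (with an SE of 0.166, and adjusted p = 0.587, limma). Mlph, which links Rab27a to a myosin motor, was dim and had -0.35 (SE 0.175).

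**Figure D4:**
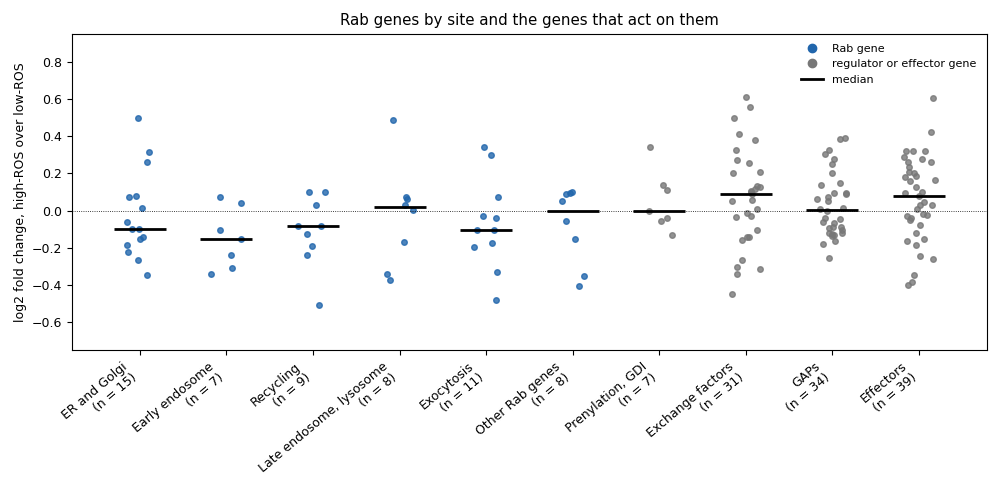
Log2 fold change (y axis, high-ROS over low-ROS) of the Rab genes by site of action (blue) and of genes that act on Rab proteins (grey), 1 point per gene, with the median of each list as a line. List medians lie between -0.15 for early endosome Rab genes and 0.09 for exchange factors, and no gene passed the threshold.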

How the data were processed

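Per the labels' protocols, RNA of sorted CMP was amplified with NuGEN Ovation reagents and biotin-labelled; each of the 6 samples has a one-colour array. The deposited values are 1 linear intensity per probe set; the sources used here do not say how the authors summarised and scaled them, and they carry no detection call. The platform annotation gives 1 symbol for 34945 of the 45101 probe sets, several for 932 and none for 9160, beside 64 controls; 34741 matched RefSeq by Entrez identifier with 0 symbols changed. Each gene took its probe set with the highest mean. A pseudocount of 16 was added before log2, with no further normalization. The high-ROS over low-ROS contrast was fitted with limma 3.58.1 (R 4.3.3; mean-variance trend, 2-sided, Benjamini-Hochberg over 18193 genes; 11.1 total degrees of freedom). Exact permutation of 3 arrays against 3 cannot go below p = 0.1 and was not used. The number of arrays limits the precision. Members, lists, tests and alternatives were chosen with earlier results of these data known.

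Rab genes named by rule were those with an unadjusted p under 0.05, and the 5 highest and 5 lowest fold changes among genes above the median. The rule also took the 6 brightest, the smallest p per site, and Rab5a, Rab7, Rab11a, Rab1a, Rab27a and Rab32. Of each regulator list it took the 3 with the smallest p. These are given on every array, except Rabif, Tbc1d22a, Tbc1d4, Tbc1d16 and Mlph, given by fold change and SE. Outside the rule, Rab6a, Rab18, Rab36, Rab22a, Rab8a and Rabgef1 are also given on every array. The steps were tested on simulated data. Figures used Python 3.11.15 and matplotlib 3.10.9.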

Additional observations from a re-analysis of the deposited data

How the results depend on the processing

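No Rab gene and no regulator or effector gene passed an adjusted p of 0.05, or of 0.1, in any of 17 alternative fits or with one test per probe set, and the family's median log2 fold change was negative in each. The median was -0.0650 with the arrays scaled to one trimmed mean, -0.0619 with probe sets averaged per gene, -0.0506 with a pseudocount of 64, -0.0556 without low-ROS replicate 1 and high-ROS replicate 3 together, and -0.102 to -0.0517 with each array left out in turn. Rab genes lower at an unadjusted p under 0.05 numbered 4 with quantile normalization (4.18% of all genes) and 1 with one trimmed mean (3.16%). They numbered 5 with probe sets averaged per gene (2.90%), 5 with array weights (4.08%) and 0 to 3 with an array left out (2.51% to 5.14%). Genes higher numbered 0 without a mean-variance trend (4.56%), with genes above the median mean only (5.71% of those) and with quantile normalization (3.99%). They also numbered 0 with array weights (5.71%) and with a pseudocount of 64 (4.38%). There were 2 with the Gapdh ratio as a covariate (3.28%) and 0 to 2 with an array left out (3.02% to 5.22%). When each probe set was tested, 11 of 128 were lower, beside 3.59% of all probe sets. Genes lower without overlap numbered 6 with one trimmed mean (4.95% of all genes) and 11 to 14 with an array left out (8.57% to 11.6% of all genes); those higher numbered 0 with genes above the median mean only (9.95%), 4 without both arrays named (21.3%) and 1 to 6 with an array left out (11.8% to 15.1%). Of the 128 probe sets, 23 were lower without overlap, beside 5.95% of all probe sets, and 2 higher, beside 7.21%. These alternatives for overlap were added after seeing the data. The labels do not say whether samples of the same replicate number were paired. Correlations of same-numbered deviations from the group means were 0.119, 0.0966 and 0.0028, beside -0.126 to 0.0606 for differently numbered arrays. With 3 arrays per group they cannot settle whether the samples were paired. With the replicate block 1 gene was higher by unadjusted p, beside 4.67% of all genes, and 2 were lower, beside 4.19%, with 0 past the threshold.

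Of 36 genes named by rule, 20 kept their sign in all settings and 16 did not, and the cause was not tested. This count and the values below leave out genes singled out after their values were seen. Among these, Rab18, Rab22a, Rab30, Rab36 and Rab43 also had a probe set of opposite sign. On other probe sets of opposite sign, Rab14 had -0.21, -0.12, -0.38 and -0.26, Rab2a -0.19, -0.45, -0.0488, -0.20 and -0.31, Rab23 0.41 and 0.10, Rab6b 0.22, 0.10 and 0.28, Rab31 0.00976, Rab7b -0.0919, Chml -0.14, Gdi2 -0.21, -0.0380 and -0.10, Rabif 0.0154, Tbc1d22a -0.0810 and Tbc1d4 -0.0568. With probe sets averaged per gene, Rab23 had 0.0333, Rab2a -0.16 and Rab6b 0.0636. With the Gapdh covariate, Rab27a had 0.15, Rab2a -0.17 and Rab7 0.12. With quantile normalization, Rab32 had -0.0516 and Rab8b 0.0175; with one trimmed mean, Rab8b had 0.00303; with array weights, Rab32 had -0.0871. Without both arrays named above, Rab1b had -0.0531, Rab27a 0.00147 and Rab32 -0.0522. With single arrays left out, values ran from 0.0999 to 0.478 for Rab1b, -0.29 to 0.0269 for Rab27a, -0.0511 to 0.112 for Rab2a, -0.118 to 0.137 for Rab32 and -0.0782 to 0.0329 for Rab8b.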
